A study of Mus musculus with 40 samples.

Results

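The 10 genes described here are regulators and markers of the epithelial-mesenchymal transition (EMT), measured by RNA sequencing in primary mammary tumors of the 4T1- and 66cl4-based mouse models. They are found by their symbols, and all 10 were found among the 14318 genes of the table of expression values. They comprise the epithelial adhesion markers Cdh1 and Epcam, the mesenchymal markers Cdh2, Vim and Fn1, and the transcription factors Zeb1, Zeb2, Snai1, Snai2 and Twist1.

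EMT is a program in which epithelial cells loosen their cell-cell junctions and take up a motile, fibroblast-like form. In carcinomas it is known for the loss of E-cadherin, for the gain of N-cadherin, vimentin and fibronectin, and for transcription factors of the ZEB, SNAIL and TWIST families, which bind E-box sequences and repress epithelial genes. Carcinoma cells often hold intermediate states, and the same mesenchymal genes are also expressed by fibroblasts, endothelium and some immune cells of a tumor.

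All tumors came from wild-type female BALB/c mice that had received luciferase-expressing 4T1 or 66cl4 cells through the milk duct while lactating, and were collected at 5 w p.i. Both are mouse mammary carcinoma cell lines, so that each model stands for a single line. Within each model, mice were left untreated, or received anti-PD-1 (200 µg, i.p.), chitin particles (1 mg, i.p.) or both, giving 8 groups of 5 tumors, except for 4 untreated 4T1 tumors. In total, 19 4T1 and 20 66cl4 tumors were analysed, each as a sample of its own. The paper describes inoculation of the third mammary gland pair, so that tumors of a group may share a mouse. The labels do not say which tumors came from the same mouse, and the tests below treat all tumors as separate.

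Between 5105898 and 14800352 reads were counted in genes per tumor, with a median of 6590274. Depth was uneven between groups, with medians of 8759930 reads in 4T1 chitin, 10250227 in 66cl4 chitin and 8985408 in 66cl4 chitin + anti-PD-1 tumors, against 6064018 to 6504793 in the other 5 groups. Reads divided by a size factor per tumor are called normalized counts below, and differences are given on the log2-like scale of the deposited values, which understates fold changes of genes with few reads. As for the labelled tissue, the simple keratins Krt8 (3152 to 17145 normalized counts) and Krt18 (40.5 to 15017) were found in every tumor of both models. Krt7 and Krt19 were found in every 4T1 tumor, but Krt7 was at 0 in 66cl4 chitin tumor 5 and Krt19 in 66cl4 chitin + anti-PD-1 tumor 5. Casein transcripts of the lactating gland (Csn2, Csn1s1 and Csn3) were also present and uneven, summing to 4.01 to 2825 normalized counts in 4T1 and 0.711 to 544 in 66cl4 tumors. Because whole tumors were sequenced, fewer cells of a type and less RNA per cell cannot be told apart for any gene below.

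The E-boxes bound by the ZEB and SNAIL factors have the letters CAGGTG, or CACCTG on the other strand, and were searched in the 250 bases before the start site in RefSeq (GRCm38.p6, the build also known as mm10). Promoter sequences were at hand for 5 members, namely Epcam, Vim, Zeb2, Snai1 and Twist1, with 8 start sites in total. At least 1 such E-box stood in 17.2% of all 32851 promoters, whereas the general letters CANNTG, which include it, stood in 66.2%. The upstream sequence of Epcam (chr17:87635729-87635978, plus strand) held 2 matches and that of Snai1 (chr2:167537945-167538194, plus strand) held 1. Both are shown 5′ to 3′ with the matches in capitals, since these 2 genes were among the most 4T1-biased members, and the sequences are a description that does not show binding.
Epcam: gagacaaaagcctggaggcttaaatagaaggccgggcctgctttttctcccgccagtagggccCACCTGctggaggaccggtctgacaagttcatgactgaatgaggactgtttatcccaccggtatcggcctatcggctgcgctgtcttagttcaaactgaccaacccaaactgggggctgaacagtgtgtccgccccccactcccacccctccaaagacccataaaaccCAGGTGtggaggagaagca
Snai1: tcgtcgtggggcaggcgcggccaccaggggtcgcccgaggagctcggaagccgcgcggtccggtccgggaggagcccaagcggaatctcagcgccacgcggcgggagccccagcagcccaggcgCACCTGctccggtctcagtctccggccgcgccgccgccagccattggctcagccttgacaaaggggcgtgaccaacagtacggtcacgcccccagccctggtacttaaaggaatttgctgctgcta
No CAGGTG or CACCTG was found in the same window of Vim, Twist1 or any of the 4 start sites of Zeb2.

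The first comparison asked how the 2 models differ in these genes. Epithelial Cdh1 and Epcam were far higher in 4T1 tumors, N-cadherin and 4 of the 5 transcription factors were higher in 66cl4 tumors, and Snai1 went the other way. All 10 members passed the threshold (limma, Benjamini-Hochberg adjusted p under 0.05 over all genes), 4 being higher and 6 lower in 4T1. This count alone does not set them apart, as 78.8% of all genes passed, 40.8% being higher and 38.0% lower in 4T1. The sizes did differ, since the median absolute difference was 1.33 over the members and 0.28 over all genes. Differences beyond 1 were found for 6 of 10 members and 9.3% of all genes. For 7 of 10 members no 4T1 tumor overlapped with any 66cl4 tumor, which held for 17.9% of all genes. The members were chosen with earlier results of these data known, so that these contrasts with all genes are a description only.

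**Figure D1:**
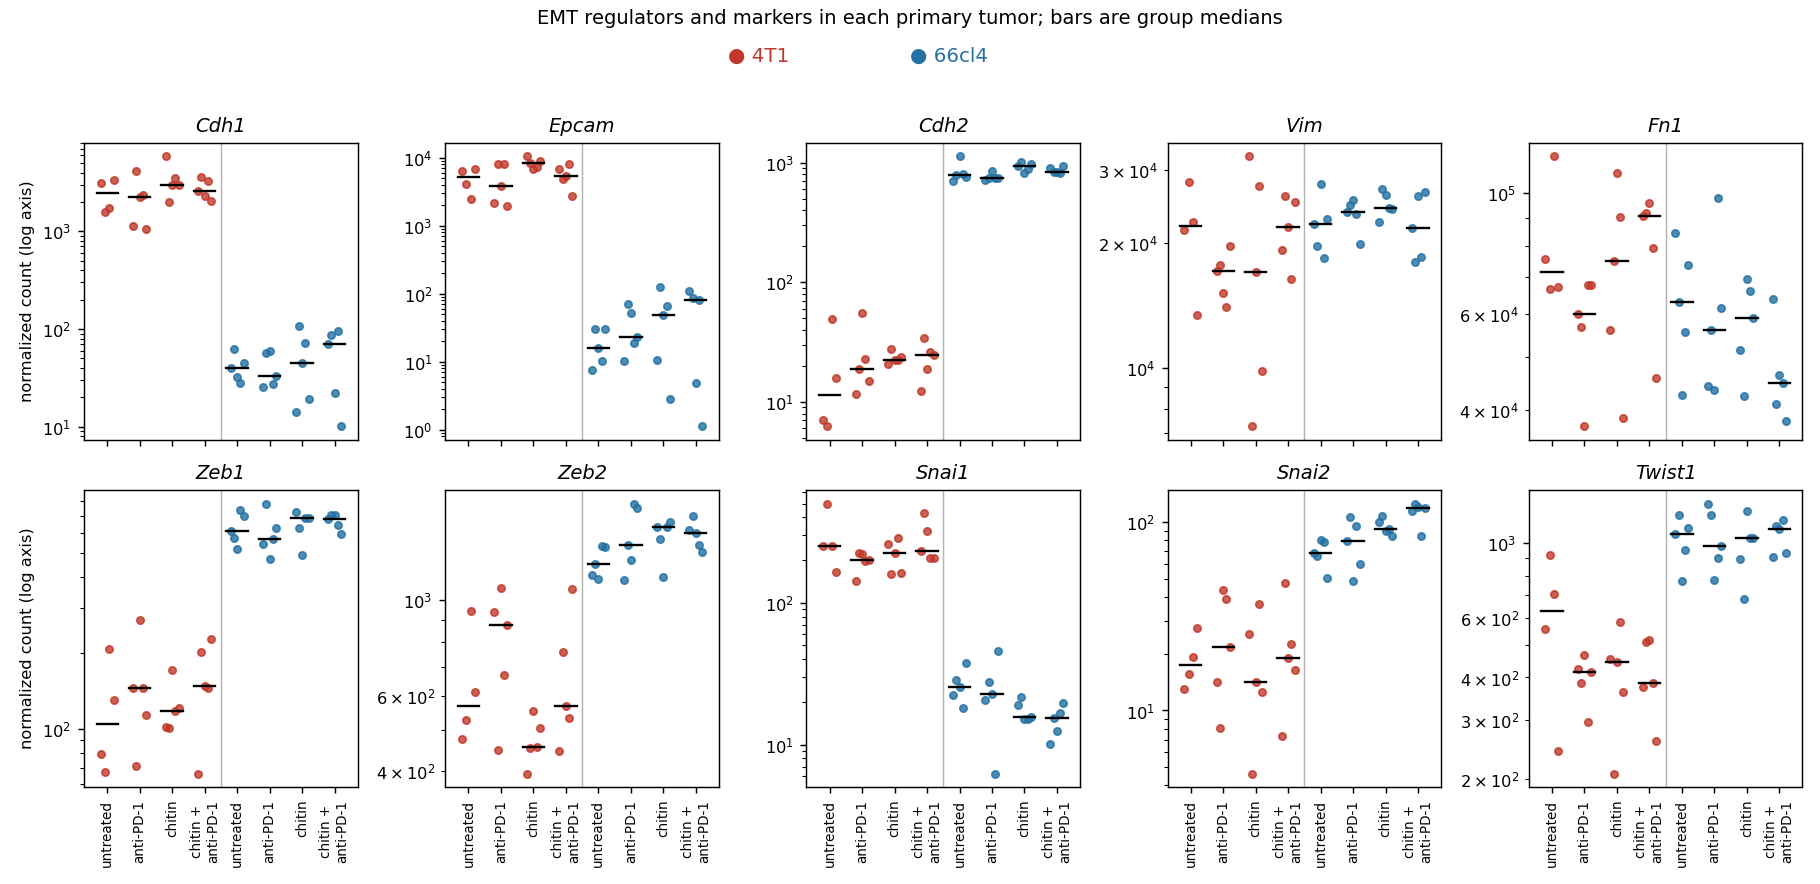
Normalized counts (log axis) of the 10 members in each tumor, by model (4T1 red, 66cl4 blue) and treatment, with group medians as bars. Cdh1 and Epcam lie high in all 19 4T1 tumors and low in all 20 66cl4 tumors, Cdh2 shows the opposite pattern, and Vim and Fn1 overlap.

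Cdh1 encodes E-cadherin, the main adhesion molecule of epithelial adherens junctions (Entrez 12550, chr8:106603350-106670247, mm10). In 4T1 tumors its normalized counts ran from 1060 to 5845 with a median of 2584, and in 66cl4 tumors from 10.1 to 107 with a median of 42.6. The lowest 4T1 tumor thus lay well above the highest 66cl4 tumor. The mean was 57.0-fold higher in 4T1, a difference of 4.18 ± 0.14 (SE, adjusted p = 4.71e-24), and 13 genes of the table had a larger absolute difference.

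Epcam encodes an epithelial cell adhesion molecule that is widely used as a marker of carcinoma cells (Entrez 17075, chr17:87635979-87651127). Its normalized counts were 1958 to 10397 (median 6730) in 4T1 and 1.12 to 123 (median 26.2) in 66cl4 tumors. Here too the models were fully separate, although 66cl4 tumors differed widely among themselves, from 2 to 153 reads. Epcam was 147-fold higher in 4T1 by the ratio of means, a difference of 5.40 ± 0.18 (SE, adjusted p = 3.26e-24). A single other gene had a larger absolute difference between the models.

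Cdh2 encodes N-cadherin, the cadherin of neurons and mesenchymal cells (Entrez 12558, chr18:16588877-16809246). From 4T1 tumors 4 to 54 reads were obtained, or 6.25 to 55.0 normalized counts with a median of 22.4. The 66cl4 tumors held 708 to 1132 normalized counts (median 828), again without overlap. Cdh2 was 37.3-fold higher in 66cl4 (difference of 4T1 minus 66cl4 -3.07 ± 0.06 SE, adjusted p = 8.81e-32).

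Both cadherins were set against each other within each tumor, as normalized counts per kb of exon. The exon length merges all annotated exons of a gene, so that the ratios are not numbers of transcript molecules. In 4T1 tumors Cdh1 was 62.8 to 786 times as high as Cdh2, with a median ratio of 218. In 66cl4 tumors Cdh2 was the more abundant, 4.86 to 52.6 times over Cdh1 with a median of 10.2. The order of the 2 cadherins was therefore opposite in all 19 and all 20 tumors, in every treatment group.

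**Figure D2:**
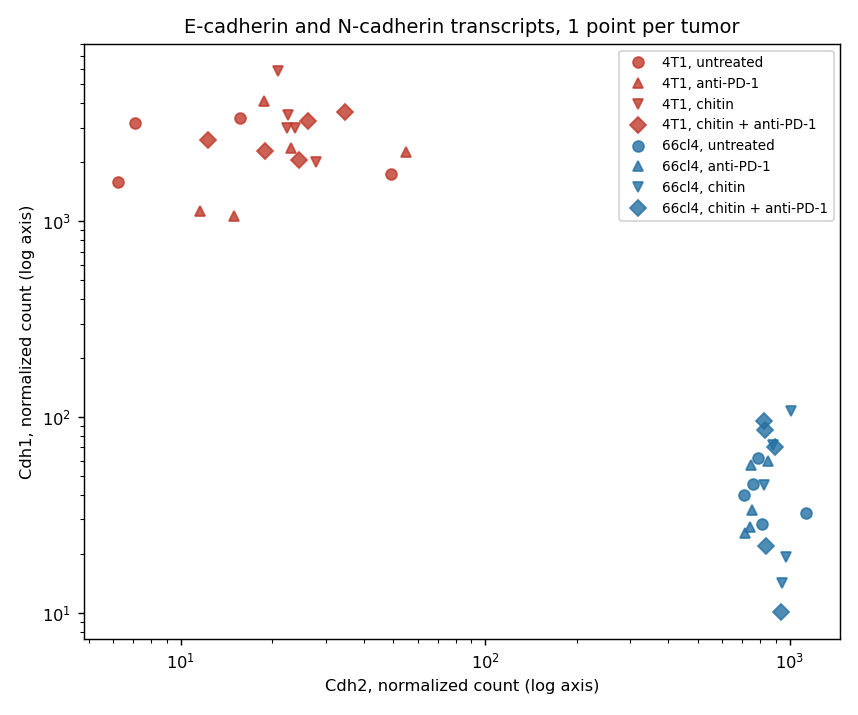
Normalized counts of Cdh1 against Cdh2 (both log axes), 1 point per tumor, coloured by model and shaped by treatment. The 4T1 tumors (Cdh1 1060 to 5845) and the 66cl4 tumors (Cdh2 708 to 1132) form separate clouds in opposite corners.

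Vim and Fn1, both standard mesenchymal markers, did not follow Cdh2. Vim encodes the intermediate filament vimentin (Entrez 22352, chr2:13574311-13582826) and reached 7251 to 32279 normalized counts (median 19207) in 4T1 and 18029 to 27751 (median 23607) in 66cl4 tumors. The 66cl4 range fell wholly within the 4T1 range. The mean was 1.18-fold higher in 66cl4 (4T1 minus 66cl4 -0.30 ± 0.13 SE, adjusted p = 0.0269). Without untreated 4T1 tumor 5 this call was lost (-0.25, adjusted p = 0.0614; 0.00377 to 0.0614 over 47 alternatives).

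Fn1 encodes fibronectin, a matrix glycoprotein (Entrez 14268, chr1:71585473-71653280). Its normalized counts were 37354 to 116544 (median 67744) in 4T1 and 38225 to 97749 (median 55887) in 66cl4 tumors. These ranges overlapped almost completely. Fn1 was 1.28-fold higher in 4T1, opposite to Cdh2 and Vim (0.34 ± 0.13 SE, adjusted p = 0.0180). With quantile normalization the difference fell to 0.20 and missed the threshold (adjusted p = 0.0863; 0.00209 to 0.0863 over 47 alternatives).

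Zeb1 and Zeb2 encode zinc finger repressors that bind E-boxes of epithelial genes. Zeb1 (Entrez 21417, chr18:5591327-5775468) had 66.2 to 269 normalized counts (median 130) in 4T1 and 469 to 782 (median 636) in 66cl4 tumors. Zeb2 (Entrez 24136, chr2:44983512-45117442) had 395 to 1070 (median 554) in 4T1 and 1116 to 1680 (median 1346) in 66cl4 tumors. Neither gene overlapped between the models. Zeb1 was 4.61-fold (4T1 minus 66cl4 -1.62 ± 0.09 SE, adjusted p = 1.75e-18) and Zeb2 2.11-fold (-0.99 ± 0.08 SE, adjusted p = 7.77e-13) higher in 66cl4 tumors.

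The SNAIL family split between the models. Snai1, encoding the repressor SNAIL (Entrez 20613, chr2:167538195-167542814), had 143 to 500 normalized counts (median 224) in 4T1 and 6.25 to 45.3 (median 19.3) in 66cl4 tumors. Snai2, encoding SLUG (Entrez 20583, chr16:14705852-14709395), had 4.63 to 47.6 (median 18.96) in 4T1 and 48.7 to 125 (median 86.9) in 66cl4 tumors. Both were fully separate between the models, in opposite directions, although the lowest 66cl4 value of Snai2 stood just above the highest 4T1 value. Snai1 was 11.9-fold higher in 4T1 (1.65 ± 0.08 SE, adjusted p = 4.15e-20), and Snai2 was 4.15-fold higher in 66cl4 (4T1 minus 66cl4 -0.80 ± 0.06 SE, adjusted p = 6.75e-14). Of the 5 transcription factors, only Snai1 was higher in the model with more Cdh1 and Epcam.

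Twist1 encodes a basic helix-loop-helix factor (Entrez 22160, chr12:33957671-33959831). Normalized counts were 208 to 923 (median 423) in 4T1 and 683 to 1304 (median 1032) in 66cl4 tumors. Of the 19 4T1 tumors, 17 lay below every 66cl4 tumor, so that a small overlap remained. Twist1 was 2.24-fold higher in 66cl4 (4T1 minus 66cl4 -1.03 ± 0.10 SE, adjusted p = 3.54e-11).

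Per kb of exon, the order of the members' levels was different in each model. In 4T1 tumors Fn1 (median normalized count per kb 5798), Vim (4049) and Epcam (3066) were the most abundant, with overlapping ranges, followed by Cdh1 (565), Twist1 (260) and Snai1 (138). Zeb2 (27.8), Zeb1 (12.6), Snai2 (9.38) and Cdh2 (2.77) closed the order, and adjacent ranges among these genes overlapped. The range of Zeb2 (19.8 to 53.6) lay below that of Snai1 (88.0 to 309). This order depends on the merged exon lengths (19.942 kb for Zeb2 and 1.621 kb for Snai1), which can exceed that of a single transcript. In 66cl4 tumors Vim (4977) and Fn1 (4783) came first and were not separate in range, followed at a distance by Twist1 (634) and Cdh2 (103). Zeb2 (67.5), Zeb1 (62.0) and Snai2 (43.0) came next with overlapping ranges, whereas Epcam (11.95), Snai1 (11.9) and Cdh1 (9.32) had the lowest medians, the range of Epcam reaching into that of Snai2. Transcripts of Vim and Fn1 were therefore abundant in both models.

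The model differences were then tested within each treatment. In untreated tumors 8 of 10 members passed the threshold, 3 higher and 5 lower in 4T1, against 55.8% of all genes (28.7% higher, 27.1% lower). Under anti-PD-1 the same counts of 3 and 5 members passed, against 58.8% of all genes (31.1% higher, 27.7% lower). Under chitin 3 members were higher and 6 lower, against 59.1% of all genes (29.9% higher, 29.2% lower). Under chitin + anti-PD-1 4 members were higher and 5 lower, against 56.9% of all genes (29.1% higher, 27.8% lower). Cdh1, Epcam, Cdh2, Zeb1, Zeb2, Snai1, Snai2 and Twist1 passed in all 4 treatments in the same direction. Epcam differed by 5.42 in untreated, 5.01 in anti-PD-1, 5.91 in chitin and 5.25 in chitin + anti-PD-1 tumors. Cdh1 differed by 4.12, 3.88, 4.52 and 4.21 in the same order. The difference of Twist1 in untreated tumors (-0.74) did not pass without untreated 4T1 tumor 5 (-0.44, adjusted p = 0.0591; 0.000474 to 0.0591 over 48 alternatives).

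Only Vim and Fn1 changed their call between treatments, which does not show that the differences themselves varied. Vim differed by -0.09 (adjusted p = 0.793) in untreated, -0.49 (0.0881) in anti-PD-1, -0.61 (0.0323) in chitin and -0.03 (0.928) in chitin + anti-PD-1 tumors. The chitin call rested on a wide 4T1 group, with normalized counts of 32279, 7251, 17068, 27429 and 9859, against 22480 to 26964 in 66cl4. It was lost without 4T1 chitin tumor 2 (-0.33, adjusted p = 0.204) or tumor 5 (-0.44, adjusted p = 0.134), without 66cl4 chitin tumor 2 (0.0604) or tumor 3 (0.0551), and with only both chitin groups in the fit (0.158, with 0.00198 to 0.204 over 48 alternatives). The anti-PD-1 difference passed in turn without 4T1 chitin tumor 2 (adjusted p = 0.0436) and with only both anti-PD-1 groups in the fit (0.00765, with 0.00765 to 0.171 over 48 alternatives). Fn1 differed by 0.35 (adjusted p = 0.282), -0.03 (0.922), 0.29 (0.347) and 0.76 (0.0120) in the same order of treatments. For the last of these, the 4T1 tumors had 90729, 91953, 95929, 79241 and 45882 and the 66cl4 tumors 63961, 41045, 46376, 44781 and 38225 normalized counts. Under quantile normalization this Fn1 difference was 0.47 and did not pass (adjusted p = 0.0521; 0.00199 to 0.0521 over 48 alternatives).

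**Figure D3:**
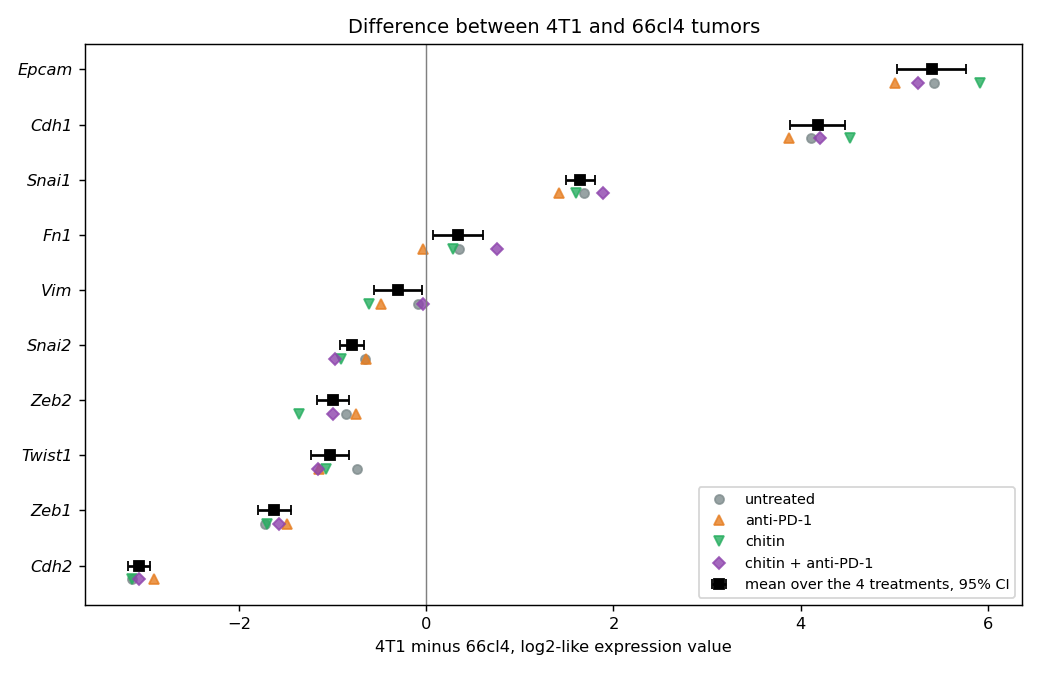
Difference of 4T1 minus 66cl4 on the log2-like scale for each member, averaged over the 4 treatments with 95% CI (black squares) and within each treatment (coloured symbols). Epcam (5.40) and Cdh1 (4.18) stand at the 4T1 end and Cdh2 (-3.07) at the 66cl4 end, with Vim and Fn1 near 0.

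Genes known to work with the members were taken from 5 lists, whose counts are to be read against the 40.8% of all genes that were higher, the 38.0% that were lower and the 17.9% without overlap. All 15 junction and keratin genes were higher in 4T1 (median difference 3.15, against 0.01 over all genes), 13 of them without overlap between the models. Cldn4, a tight junction claudin, had a median of 5585 normalized counts in 4T1 and 24.3 in 66cl4, a difference of 5.33. The simple keratins Krt7 (3765 and 21.6) and Krt18 (6797 and 181) followed with differences of 4.93 and 4.62. Of 12 epithelial transcription and splicing factors, 11 were higher and 1 was lower in 4T1 (median 0.47). Esrp1, a splicing regulator of epithelial isoforms, differed by 2.51, Grhl2, an activator of junction genes, by 2.15, and Elf3 by 1.64, whereas Klf5 was lower in 4T1 (-0.27).

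Among 11 measured other EMT transcription factors, 5 were higher and 3 lower in 4T1, and their median difference was 0.02. Foxc2 (1.90), Sox9 (1.87) and Hmga2 (0.58) were higher in 4T1, while Fosl1 (-0.95), Foxc1 (-0.94) and Twist2 (-0.80) were higher in 66cl4. Snai3 and Gsc were not analysed here. Mesenchymal effectors did not follow the direction of Cdh2 as a list, as 13 of 18 were higher and 3 lower in 4T1 (median 1.62). Tnc, encoding the matrix protein tenascin-C, had a median of 6364 normalized counts in 4T1 and 84.95 in 66cl4 (4.70), followed by the matrix protein Postn (3.23) and the collagen crosslinking enzyme Lox (2.88). In the other direction S100a4, a calcium-binding protein of motile cells, had medians of 743 in 4T1 and 7110 in 66cl4 (-3.07), and Thbs1 (-1.61) and the receptor kinase Axl (-0.75) were also lower in 4T1. Of 14 EMT-inducing signals, 8 were higher and 5 lower in 4T1 (median 0.43), with the ligands Jag1 (1.25), Wnt5a (1.14) and Tgfb3 (0.99) at the upper end. The TGF-β receptor Tgfbr2 (-1.26) and the signal transducers Smad3 (-1.15) and Smad4 (-0.38) were lower in 4T1.

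Markers of other cell types also differed between the models, where again 40.8% of all genes were higher and 38.0% lower in 4T1. Of 10 fibroblast genes, 6 were higher (Col1a1 among them, 3.17) and 2 lower (Pdgfra -1.20, Pdgfrb -1.08) in 4T1, and their summed normalized counts ran from 4829 to 177929 in 4T1 and from 8124 to 19101 in 66cl4. All 10 macrophage genes were lower in 4T1, with sums of 5653 to 36576 against 28587 to 52471. Endothelial genes (6 of 8 higher, sums of 2456 to 7957 against 1893 to 2605) and all 7 adipocyte genes were higher in 4T1, as were 7 of 8 muscle genes. So were 9 of 9 neutrophil, 7 of 8 T-cell and 3 of 3 lactating epithelium genes, together with 4 of 7 myoepithelial genes, 2 others being lower. The B-cell genes did not pass, with sums of 5.32 to 448 against 20.1 to 66.2. No defining marker of these lists was at 0 in all tumors of a model, and their part in the members' differences was not tested.

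Within 4T1, some members were set beside the fibroblast sum in 3 tumors from its extremes. This sum is mostly one of collagens. The 4T1 medians of Col1a1, Col1a2 and Col3a1 were 19985, 13544 and 17304, and no other gene of the list exceeded 1015 (Thy1). Anti-PD-1 tumor 3, with a fibroblast sum of 153650, held the highest 4T1 values of Zeb1 (269 normalized counts), Zeb2 (1069.8) and Cdh2 (55.0), and chitin + anti-PD-1 tumor 2, with the highest sum of 177929, held that of Snai2 (47.6). In this tumor with the highest sum Cdh2 was 34.6, and Zeb1 and Zeb2 also lay below anti-PD-1 tumor 3. Chitin + anti-PD-1 tumor 1, with the lowest sum of 4829, held the lowest value of Zeb1 (66.2) and had 446 of Zeb2, 12.3 of Cdh2 and 7.36 of Snai2. Fn1 did not follow the sum in these last tumors, with 90729 in chitin + anti-PD-1 tumor 1 and 91953 in tumor 2. The other members were not set beside it. These tumors and members were picked after their values were seen, and the part of fibroblasts in the members' values was not tested.

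The next comparisons asked whether the treatments of the study changed the members within a model. In 4T1 tumors no member passed the threshold in any comparison with untreated tumors or between chitin-containing and other groups, and neither did any other gene (0.0% of all genes in each). At an unadjusted p under 0.05 there were 0 members and 367 to 1273 genes per comparison, and limma-voom on the recovered reads called 0 genes as well. For chitin alone and for the chitin-containing groups, the most positive estimates were those of Epcam and Cdh1. Epcam had 6425, 4097, 2426 and 6890 normalized counts in untreated tumors, 2119, 8037, 3776, 8123 and 1958 under anti-PD-1, 10397, 8181, 6730, 7151 and 9003 under chitin, and 6730, 4770, 5436, 8104 and 2729 under chitin + anti-PD-1. The chitin group was the least variable and its lowest tumor lay just below the highest untreated tumor. Chitin-containing groups against the others gave 0.59 for Epcam (95% CI -0.0042 to 1.19; adjusted p = 0.686) and 0.45 for Cdh1 (-0.05 to 0.96; adjusted p = 0.717). Against untreated tumors, chitin alone gave 0.82 for Epcam (-0.05 to 1.69) and 0.46 for Cdh1 (-0.28 to 1.19), with adjusted p = 1.0 for both.

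Zeb2 was the most negative member in 4T1 for the chitin-containing groups (-0.27; 95% CI -0.59 to 0.05; adjusted p = 0.748). Its normalized counts were 395, 453, 554, 456 and 505 under chitin and 446, 758, 569, 533 and 1066 under chitin + anti-PD-1, against 475, 525, 947 and 612 in untreated tumors and 940.5, 449.7, 1069.8, 671 and 875 under anti-PD-1. The groups overlapped, and the estimate against untreated tumors was -0.33 under chitin but 0.05 under chitin + anti-PD-1. Macrophage genes had a median difference of -0.61 in the same comparison, with sums of 8467 to 25590 under chitin, 5653 to 24436 under chitin + anti-PD-1, 16206 to 26404 in untreated tumors and 14256 to 36576 under anti-PD-1, and their part was not tested. Differences from untreated tumors ran from -0.48 (Fn1) to 0.27 (Zeb2) under anti-PD-1, from -0.40 (Twist1) to 0.82 (Epcam) under chitin and from -0.38 (Twist1) to 0.23 (Zeb1) under the combination.

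In 66cl4 tumors no member and no other gene passed either (limma, 0.0% of all genes in each comparison; limma-voom also called 0). At an unadjusted p under 0.05 there were 3 members and 2238 genes for the chitin-containing groups, 2 members and 1516 genes for chitin + anti-PD-1, 1 member and 1639 genes for chitin, and 0 members and 767 genes for anti-PD-1. Snai2 came closest to the threshold. Its normalized counts were 68.8, 66.5, 80.9, 78.6 and 50.7 in untreated tumors, 79.6, 106, 48.7, 95.01 and 59.7 under anti-PD-1, 100.4, 108, 89.4, 91.7 and 83.9 under chitin, and 115, 125, 121, 84.4 and 119 under the combination. Every chitin-containing tumor thus lay above every untreated tumor, but not above every anti-PD-1 tumor. Chitin-containing tumors exceeded the others by 0.25 ± 0.06 (SE, 95% CI 0.13 to 0.38; adjusted p = 0.0961). Against untreated tumors Snai2 differed by 0.22 under chitin (adjusted p = 0.321) and by 0.35 under the combination (adjusted p = 0.214).

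Snai2 passed in some alternatives. It did so without untreated tumor 3 (0.27, adjusted p = 0.0390), without anti-PD-1 tumor 2 (0.28, 0.0475) and with tumor weights (0.26, 0.0331), whereas adjusted p ran from 0.0331 to 0.638 over 47 alternatives. With all tumors thinned to 5105898 reads the difference was 0.16 (adjusted p = 0.244). Cdh2, the second member at an unadjusted p under 0.05, had normalized counts of 708, 789.8, 1132, 813 and 758 in untreated, 716, 749, 848, 741 and 751 in anti-PD-1, 943, 1009, 824, 884 and 976 in chitin, and 898, 833, 839, 822 and 938 in chitin + anti-PD-1 tumors. Untreated tumor 3 was the highest of all 20. Chitin-containing tumors exceeded the others by 0.15 ± 0.06 (SE, adjusted p = 0.233), and without that tumor 0.20 (adjusted p = 0.0252; 0.0252 to 0.882 over 48 alternatives).

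Snai1 was the third and was lower in the chitin-containing 66cl4 groups by estimate (-0.16 ± 0.06 SE, adjusted p = 0.251). It had 22.5, 28.7, 25.5, 18.0 and 37.4 normalized counts in untreated, 20.5, 27.5, 22.6, 6.25 and 45.3 in anti-PD-1, 18.9, 21.7, 15.2, 15.1 and 15.7 in chitin, and 10.1, 15.5, 12.4, 16.6 and 19.6 in chitin + anti-PD-1 tumors. The groups overlapped, the lowest and the highest tumor both being anti-PD-1 tumors, and the values rest on 5 to 38 reads. The remaining estimates for the chitin-containing groups included 0.22 for Epcam (95% CI -0.22 to 0.66), 0.09 for Cdh1 (-0.21 to 0.38) and -0.23 for Fn1 (-0.55 to 0.09). Against untreated tumors, estimates ran from -0.11 (Cdh2) to 0.23 (Epcam) under anti-PD-1, from -0.16 (Snai1) to 0.32 (Epcam) under chitin, and from -0.43 (Fn1) to 0.35 (Snai2) under the combination.

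**Figure D4:**
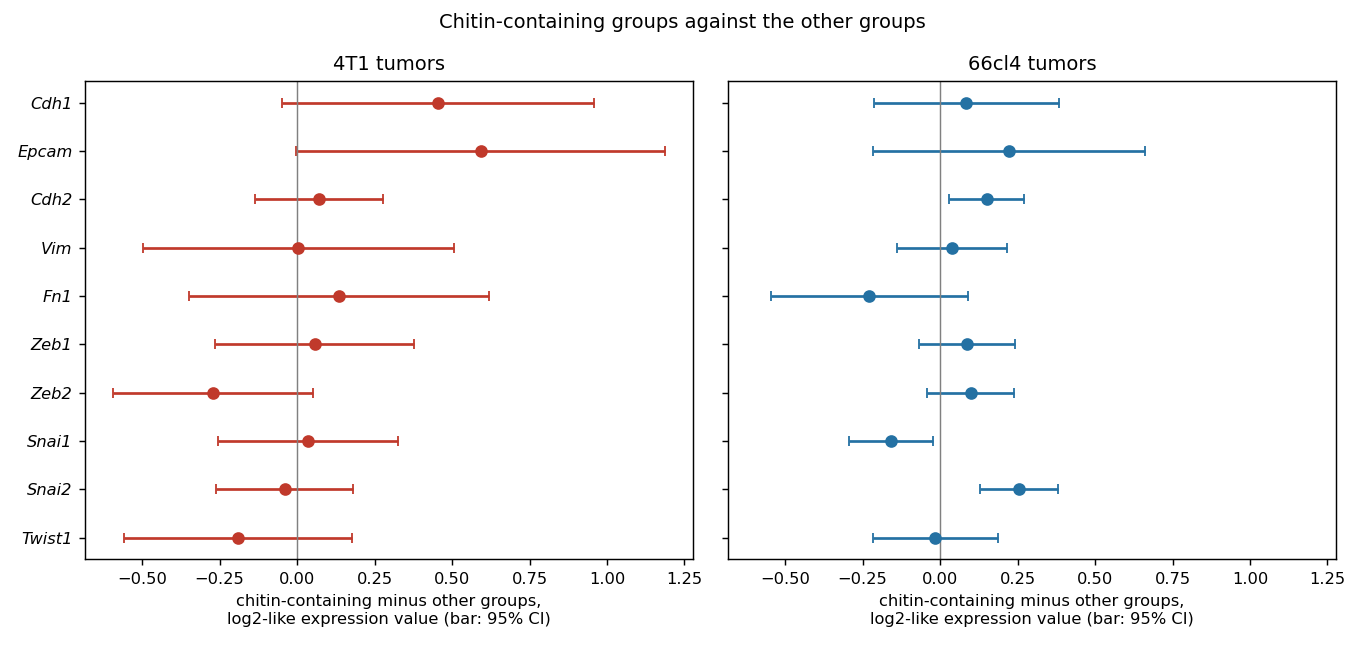
Difference of chitin-containing minus other groups on the log2-like scale with 95% CI for each member in 4T1 (left) and 66cl4 (right) tumors. No member passed after adjustment, and the intervals of Snai2 (0.13 to 0.38), Cdh2 and Snai1 in 66cl4 exclude 0 before adjustment.

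A fit of all 39 tumors tested if the chitin-associated difference depended on the model. No member passed (limma), against 0.0978% of all genes (14 genes, 0.021% with a more positive and 0.0768% with a more negative difference in 4T1). Limma-voom called 0 members too. At an unadjusted p under 0.05 (limma) there were 2 members and 1887 of all 14318 genes. These 2 members were Zeb2, with -0.37 ± 0.17 (SE, adjusted p = 0.337), and Snai2, with -0.29 ± 0.12 (SE, adjusted p = 0.283). Epcam and Cdh1 each had an estimate of 0.37 with 95% CIs of -0.37 to 1.11 and -0.21 to 0.95. With tumor weights Zeb2 passed (-0.45, adjusted p = 0.0283; 0.0283 to 0.466 over 47 alternatives).

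Beyond group means, the members were compared across the tumors of a model after removal of treatment means, for 6 pairs in each model. Cdh1 and Epcam rose and fell together. In 66cl4 tumors Pearson's r was 0.95 and Spearman's rho 0.92 over 20 tumors (two-sided permutation tests, adjusted over 12 relations, p = 0.00018 and 0.00048), and r was 0.92 without the 2 tumors farthest from the median of Cdh1. In 4T1 tumors r was 0.76 and rho 0.75 over 19 tumors (permutation, adjusted p = 0.00708 and 0.0117), and r was 0.72 without 2 tumors. Zeb1 and Zeb2 were related in 4T1 with r = 0.87 and rho = 0.86 (permutation, adjusted p = 0.00018 and 0.0006; r = 0.85 without 2 tumors). In 66cl4 the same pair had r = 0.60 and rho = 0.65 (permutation, raw p = 0.0227 and 0.00613, adjusted p = 0.0545 and 0.0171; r = 0.67 without 2 tumors).

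Vim was tested with Cdh1, Fn1 and Zeb2 only. With Zeb2 in 66cl4, its r was -0.46 and rho -0.58 (permutation, adjusted p = 0.0545 and 0.0171), and without 2 tumors r was -0.39 (permutation p = 0.0700). For Cdh1 with Vim, Vim with Fn1, Vim with Zeb2 in 4T1, and Snai2 with Twist1, r ran from -0.28 to 0.24 and no adjusted p was below 0.05 in a permutation test. The relation of Cdh1 with Vim in 4T1 changed sign without 2 tumors (from 0.19 to -0.05). As a description without a test, r of Vim was 0.68 with Twist1 and 0.65 with Snai1 over the 19 4T1 tumors. It was 0.48 with Cdh2 over the 20 66cl4 tumors. These values are given as the highest of Vim with other members in each model. They did not recur in the other model, with -0.32 (Twist1) and -0.06 (Snai1) in 66cl4 and -0.14 (Cdh2) in 4T1. Over all untested pairs of members in 4T1, r ran from -0.79 (Epcam with Zeb2) to 0.79 (Snai1 with Twist1). In 66cl4 the untested pairs ran from -0.73 (Cdh2 with Twist1) to 0.48 (Vim with Cdh2).

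**Figure D5:**
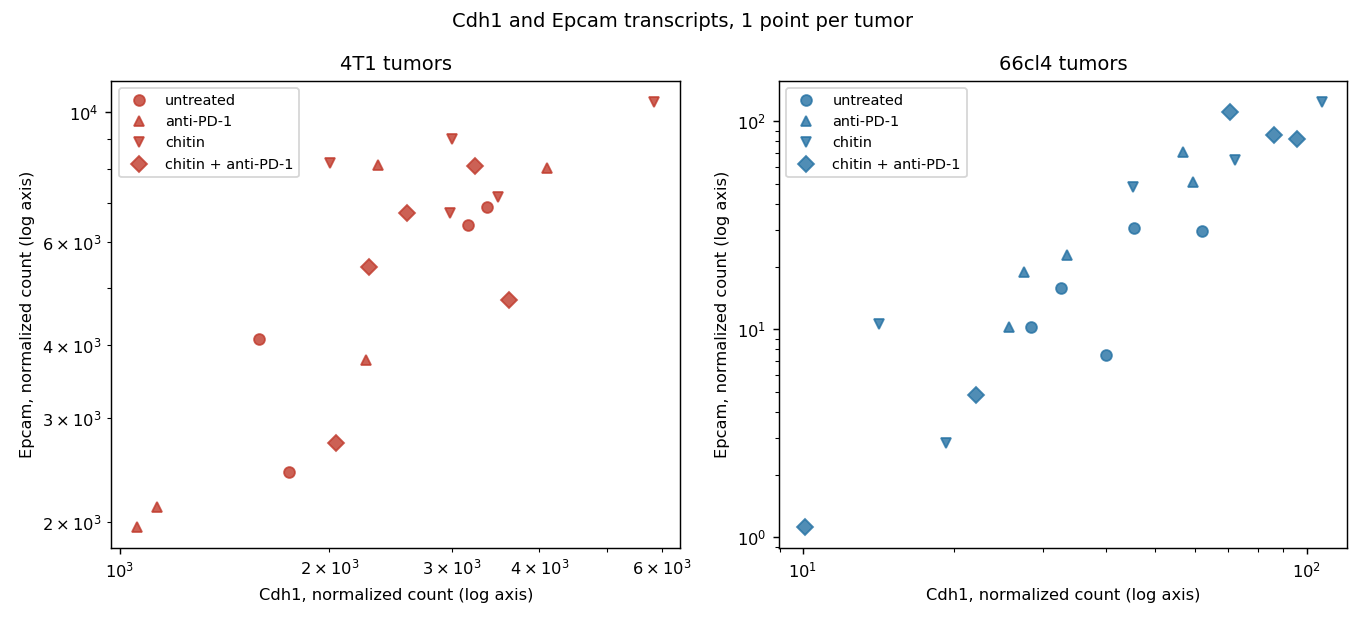
Normalized counts of Cdh1 and Epcam (log axes) in each 4T1 (left) and 66cl4 (right) tumor, shaped by treatment. In 66cl4 Epcam runs from 1.12 to 123 along with Cdh1 from 10.1 to 107.

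The 66cl4 tumors lowest and highest in Epcam both came from the chitin-containing groups, where its SD was 48.4 (chitin) and 50.5 (chitin + anti-PD-1) normalized counts, against 10.9 in untreated and 25.4 in anti-PD-1 tumors. The difference in spread was not tested. Chitin tumor 2 had 123 normalized counts of Epcam, 107 of Cdh1, 318 of Krt19 and 60.4 of Krt7, and chitin + anti-PD-1 tumor 1 had 111, 70.6, 166 and 52.9. At the other end, chitin + anti-PD-1 tumor 5 had 1.12 of Epcam, 10.1 of Cdh1, 0 of Krt19 and 0.561 of Krt7, and chitin tumor 5 had 2.85, 19.2, 0.711 and 0. Krt8 did not follow, with 4821 in chitin tumor 2 and 4962 in chitin + anti-PD-1 tumor 5. Krt18 was higher in the first tumors, with 197 in chitin tumor 2 and 258 in chitin + anti-PD-1 tumor 1. It had 107 in chitin + anti-PD-1 tumor 5 and 40.5 in chitin tumor 5. Summed casein transcripts were 21.7 in chitin tumor 2 and 544 in chitin + anti-PD-1 tumor 1, against 2.81 in chitin + anti-PD-1 tumor 5, and the basal keratin Krt5 was 141, 77.3 and 2.24 in the same tumors. The part of residual mammary epithelium in these values was not tested.

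The genes most alike to each member in their deviations from the group means were sought among the more expressed genes, as a description over all 39 tumors that share libraries and depth. Cdh1 was closest to St14 (r = 0.87), which encodes an epithelial membrane protease, then Epcam (0.82). Epcam was closest to Krt7 (0.91), Cldn4 (0.87) and Cdh1 (0.82). For Zeb2 they were Nsd1 (0.92), Mef2c (0.88) and Dock8 (0.87), for Zeb1 Nsd1 (0.86), Akap13 (0.86) and Tent5a (0.85), and for Cdh2 Plekha1 (0.83), Ckap4 (0.81) and Prss23 (0.77). Vim was closest to Rtn4 (0.83), Fn1 to Apol7d (0.88), Twist1 to Plbd2 (0.78), Snai1 to Kdelr2 (0.76) and Snai2 to Mmp19 (0.72). Among the 20 66cl4 tumors alone, Krt19 and Krt7 were the genes most like Cdh1 (0.97 and 0.96) and Epcam (0.96 and 0.96).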

How the data were processed

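Per the labels and the paper's methods, total RNA of flash-frozen primary tumors was turned into stranded libraries, and the authors aligned reads to mm10 with HISAT2, counted them per gene with strand information, removed genes with few reads and applied the variance stabilizing transformation of DESeq2. The deposited values are therefore on a log2-like scale. The annotation used for counting and tool versions are not given in the sources used here. The lowest value (6.05), shared by all tumors, stands for 0 reads and fixes the transformation, which allowed size factors and reads to be recovered (100.0% of values whole within 0.001 reads). Molecular identifiers were not used, and precision is given as the spread between tumors. Each tumor is a sample of its own in the labels, and p-values measure the spread between these samples. They do not measure the spread between mice where tumors share a mouse, which the labels do not show.

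The deposited log2-like values were analysed with limma 3.58.1 in R 4.3.3 (group means, eBayes with a mean-variance trend, Benjamini-Hochberg over all 14318 genes, threshold 0.05) in 14 comparisons. Models were compared in 1 fit of 8 groups, as the mean of the 4 treatment-matched differences, and treatments in 1 fit per model. Comparisons with untreated tumors share those tumors. The procedure was tested on simulated data. Pairs of members were tested with 100000 permutations within treatment groups. Gene positions are from RefSeq. Exon lengths are from GENCODE vM21, with the exons of all transcripts of a gene merged. Alternatives were leaving out the lowest 25% of genes by mean, fits without the trend, median centring, quantile normalization, tumor weights, the tumor number as a block, limma-voom on recovered reads, equal depth, other sets of groups in the fit, and leaving out each tumor. Named genes are all 10 members, and from each of 5 partner lists up to 3 genes with the largest rise and fall past the threshold between the models. Of the genes most alike to a member, up to 3 with the highest Pearson correlation are given (1 is not reported here), and values of fibroblast, casein and keratin genes in single tumors were chosen after being seen. The members and lists were chosen with earlier results of these data known. Untreated 4T1 tumor 3 is not analysed here.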

Additional observations from a re-analysis of the deposited data

Results flagged for a closer look

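In 4 of 80 member-by-group sets of 4 or 5 tumors, 1 tumor stood apart from the others by a gap above Dixon's 95% critical value, and chance flags about 1 in 20 groups, or 4 here. Cdh2 had a value of 10.30 in untreated 66cl4 tumor 3 (1132 normalized counts), against 9.71 to 9.88 in the other tumors of the group. Cdh2 was also highest in 66cl4 anti-PD-1 tumor 3 (9.93, or 848 normalized counts), against 9.72 to 9.78. Fn1 was low in 4T1 chitin + anti-PD-1 tumor 5 (15.49, or 45882 normalized counts), against 16.28 to 16.55. Snai2 was low in 66cl4 chitin + anti-PD-1 tumor 4 (7.60, or 84.4 normalized counts), against 7.84 to 7.91.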

How the results depend on the processing

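In 4T1 against 66cl4 over the 4 treatments, 9 to 10 members passed when single tumors were left out (9 also with the filter, which removes Snai2 from testing). Each member kept its direction in every alternative that tested it, with Vim and Fn1 losing their call as given above. Single-treatment estimates near 0 changed sign, namely Vim in untreated tumors with quantile normalization (0.030) and from -0.23 to 0.12 over omissions of 1 tumor, Fn1 under anti-PD-1 with tumor weights (0.086) and from -0.13 to 0.16 over omissions, and Vim under chitin + anti-PD-1 from -0.099 to 0.066 over omissions. In 66cl4, the estimates for the chitin-containing groups reversed under limma-voom for Cdh1 (-0.039) and Epcam (-0.069), neither of which was called. The relation of Cdh1 with Vim in 4T1 turned to -0.053 and that of Vim with Zeb2 in 66cl4 weakened to -0.39 without 2 tumors. For the chitin-containing groups in 66cl4, tumor weights let 1 member pass and omissions of 1 tumor 0 to 2 (2 without untreated tumor 3, 1 without anti-PD-1 tumor 2), and for the difference between the models 1 member passed with tumor weights.

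Counts over all genes in the treatment comparisons, 0 in each, depended more on the settings. With tumor weights 960 genes passed for anti-PD-1 and 297 for the chitin-containing groups in 4T1, and 185 for the latter in 66cl4. With both models in 1 fit these were 60, 58 and 1, and 3 for chitin + anti-PD-1 in 4T1. The filter gave 6 and equal depth 5 for the chitin-containing groups in 66cl4. Omissions gave 0 to 80 for anti-PD-1 in 4T1 (80 without anti-PD-1 tumor 2), 0 to 1 for the chitin-containing groups in 4T1 (1 without anti-PD-1 tumor 2 or chitin + anti-PD-1 tumor 5), 0 to 25 for chitin in 66cl4 (25 without untreated tumor 3), 0 to 3 for chitin + anti-PD-1 in 66cl4 (2 without untreated tumor 3 and 3 without tumor 4) and 0 to 269 for the chitin-containing groups in 66cl4 (269 without untreated tumor 3, 29 without anti-PD-1 tumor 2, 21 without chitin tumor 3, 3 without untreated tumor 4 or anti-PD-1 tumor 3, and 1 without chitin + anti-PD-1 tumor 4). The 14 genes passing for the difference between the models became 8 with the filter, 39 with quantile normalization, 1004 with tumor weights, 28 at equal depth, and 0 (without untreated 4T1 tumor 5) to 677 (without 4T1 anti-PD-1 tumor 2) over omissions, of which 4 of 39 left it within 1.5 times. The cause of these shifts was not tested.

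Whether tumor numbers link tumors across groups was not settled. Of 133 same-numbered pairs, 37 had correlated deviations above 0.1 (median r 0.009), and 13 of 39 tumors correlated best with their own number. The numbers to be found without any link were not computed. Between untreated and anti-PD-1 66cl4 tumors, a pair of groups picked for its high values, r was 0.45, 0.29, 0.54 and 0.28 for tumors 1 to 4 and -0.09 for tumor 5. Between untreated and chitin 66cl4 tumors, r was -0.09, -0.30, -0.29, 0.21 and -0.29 for tumors 1 to 5. With the number as a replicate block, 104 genes passed for the difference between the models, 1 for chitin + anti-PD-1 in 4T1, and 2, 7 and 16 for chitin, chitin + anti-PD-1 and the chitin-containing groups in 66cl4, none of them a member. Depth limited Cdh2 and Snai2 in 4T1 and Epcam and Snai1 in 66cl4, where the lowest tumors had 4, 5, 2 and 5 reads.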
